A study of Mus musculus with 8 samples.

Results

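Chromatin accessibility was examined at 10 immediate early response genes in the livers of adult control and Alb-D2KO mice. The genes are Fos, Fosl2, Jun, Junb, Jund, Atf3, Egr1, Ier2, Klf6 and Klf10, 10 of 21728 protein-coding genes on chromosomes 1 to 19 and X. Regions called open in either genotype but not in both were taken if they overlapped one of these gene bodies (mm10) or lay within 10 kb of it. The search found 9 of the 8031 areas of reduced chromatin accessibility (RCAs), which were open in control liver but were not called in Alb-D2KO liver, and 0 of the 250 regions open only in Alb-D2KO liver.

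Immediate early genes are transcribed within minutes of a growth factor, hormone, cytokine or stress signal, without new protein synthesis, through factors such as SRF with its ternary complex partners and CREB that already occupy their promoters. Most of the proteins they encode are transcription factors. FOS and JUN proteins pair through leucine zippers to form AP-1, ATF3 belongs to the same bZIP class, and the EGR and KLF proteins are zinc finger factors that read GC-rich DNA. In the liver these genes are known for their rapid induction after partial hepatectomy, in the acute phase response and in fasting, and also for responding to the handling of the tissue itself.

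The libraries were made by ATAC-seq, in which the Tn5 transposase cuts open chromatin, from nuclei of frozen livers of adult C57BL/6 mice, 50000 nuclei per library. The authors' methods give the strain as C57BL/6J. Control livers (4 libraries, named cre in their labels) were compared with Alb-D2KO livers (4 libraries), in which a floxed Dio2 gene was deleted by Cre recombinase driven by the albumin promoter. The labels of the controls do not say whether they carried the floxed allele. Dio2 encodes the type 2 deiodinase (D2), which makes the active thyroid hormone T3 from T4. That promoter is active in hepatocytes, so cells of other lineages in the liver, such as leukocytes, keep the gene. The open regions had been called on the pooled libraries of each genotype, so no value carries a replicate error, no test over animals was possible, and depth per library is unknown. In nuclei of whole liver, fewer nuclei of a cell type and less open chromatin within that type cannot be told apart.

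Tissue identity could not be checked by absolute accessibility, because the lists hold only regions that differed between genotypes. Of 6 hepatocyte marker genes, 5 had an RCA within 10 kb, with 18 RCAs in all, and the gene without one was Cps1. None of 6 markers of Kupffer cells and other leukocytes and none of 4 stellate cell markers had one, against 2 of 4 endothelial and 1 of 4 cholangiocyte markers. Genes of the lengths of these markers had an RCA in 22.8% to 31.5% of cases on average, and lists of 4 to 6 genes are too short to set most of these counts apart from that share. No marker had a region open only in Alb-D2KO liver. The part of the cell mix in the counts below was not tested.

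The sequences around the summits of 6 of the 9 RCAs are shown because they are the DNA that was open in control liver at the early genes, and because the early genes encode factors that read short motifs of this kind. Each is the plus strand of mm10 up to 75 bases on either side of the summit, cut at the edge of the region or of the coding sequence. Capitals mark matches on either strand to 3 of the motifs searched, AP-1 (TGACTCA), the GC box (GGGCGG) and the CACCC box (CACCC), which SP and KLF proteins can bind.
Fosl2, chr5:32138554-32138704: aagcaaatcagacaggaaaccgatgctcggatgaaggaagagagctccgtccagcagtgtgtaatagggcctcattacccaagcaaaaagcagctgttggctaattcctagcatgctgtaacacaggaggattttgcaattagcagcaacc
Junb, chr8:84984705-84984855: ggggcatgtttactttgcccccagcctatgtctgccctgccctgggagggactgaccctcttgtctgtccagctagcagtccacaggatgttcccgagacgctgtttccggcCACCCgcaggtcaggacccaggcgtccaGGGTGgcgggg
Jund, upstream, chr8:70696583-70696733: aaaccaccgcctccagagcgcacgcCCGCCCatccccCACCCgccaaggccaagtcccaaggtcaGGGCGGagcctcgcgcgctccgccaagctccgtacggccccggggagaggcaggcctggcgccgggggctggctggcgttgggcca
Jund, coding exon, chr8:70700003-70700080: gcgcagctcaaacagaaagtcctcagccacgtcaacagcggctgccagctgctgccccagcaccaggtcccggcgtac
Ier2, chr8:84660273-84660423: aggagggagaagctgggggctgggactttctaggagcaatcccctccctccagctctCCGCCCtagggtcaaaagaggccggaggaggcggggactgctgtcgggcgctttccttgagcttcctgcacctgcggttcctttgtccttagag
Klf10, chr15:38284035-38284173: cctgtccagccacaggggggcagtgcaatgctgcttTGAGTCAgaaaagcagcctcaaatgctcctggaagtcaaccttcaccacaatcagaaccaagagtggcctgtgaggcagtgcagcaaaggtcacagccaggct

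An RCA lay within 10 kb of 6 of the 10 early genes, against 25.2% of all protein-coding genes. Junb had 3, Jund had 2, and Fosl2, Egr1, Ier2 and Klf10 had 1 each. Fos, Jun, Atf3 and Klf6 had none. The early genes are short, with a median body of 4698.5 bp against 17429 bp for all protein-coding genes, and short genes had an RCA less often: 16.6% of genes up to 5 kb and 33.2% of genes over 50 kb had one. Among genes within 1.5-fold of the length of each early gene, 21.0% had an RCA on average, which amounts to 2.10 of 10 genes. Genes of those lengths carried 3.14 RCAs in all on average, against the 9 found. With RefSeq gene bodies in place of those of GENCODE, 5 of 10 early genes had an RCA, since the region near Egr1 fell outside, and the share of all coding genes was 25.1%. With RCAs of an AUC of at least 300 alone, 3 of 10 early genes had one, as did 2816 of the 21728 coding genes. Within the gene bodies alone these counts were 3 and 3434.

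**Figure D1:**
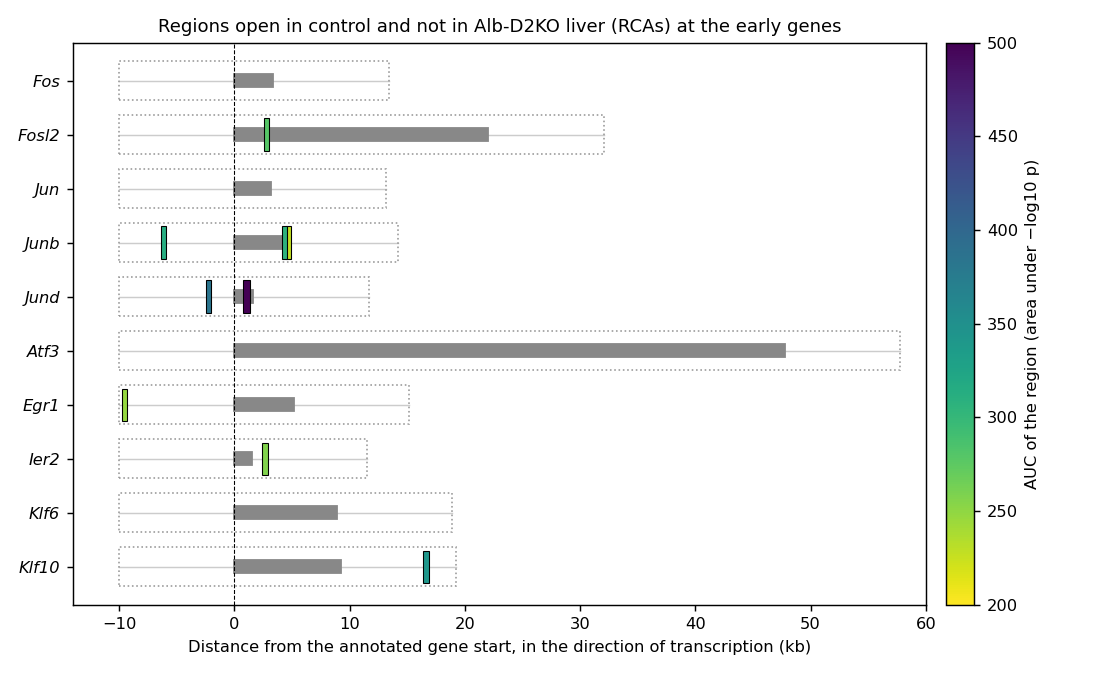
RCAs at the 10 early genes, drawn by their distance in kb from the annotated gene start in the direction of transcription. Grey bars are gene bodies, dotted boxes the searched windows, and coloured bars the 9 RCAs (drawn at least 0.45 kb wide), coloured by AUC; no coloured bar touches the dashed line at the gene start.

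The positions of the RCAs were then set against the gene starts. The RCA nearest to the start of an early gene was 787 bp from it, at Jund. None of the 10 early genes had an RCA within 200 bp of any of its own annotated starts, as 6% of all protein-coding genes did, so a count of 0 in 10 genes is near that share. An RCA overlapped the body of 3 early genes (Fosl2, Junb and Jund), against 15.8% of all coding genes, and at Junb this overlap was only 7 bp. A region of the promoter class, meaning within 200 bp of the start of any annotated gene, was found at 1 early gene (Jund), against 9.58% of all coding genes, and at none when the starts of coding genes alone were used. Of the 9 RCAs, 3 lay upstream, 3 inside and 3 downstream of the gene body.

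The FOS side of AP-1 was represented by 1 RCA. Fos (chr12:85473890-85477273), the founding FOS protein and the classical serum-induced gene, had none within 10 kb. Its nearest RCA was 99.5 kb upstream, in the promoter class, with an AUC of 312. The nearest coding start to that RCA, that of Tmed10, was 482 bp away, outside the 200 bp of the promoter class. The AUC is the area under the −log10 p of a region as the peak caller wrote it. It grows with both the width and the strength of a region. For an RCA it comes from the control call alone, so it does not measure how much signal was lost in Alb-D2KO liver. AUCs among all RCAs run down to about 200 and appear to stop there, as if the call had a floor at that value. Fosl2 (chr5:32135801-32157842), which encodes FRA-2, a FOS protein without the transactivation domain of FOS, had 1 RCA of 363 bp at chr5:32138411-32138773. That region began 2610 bp into the gene, in the first intron of the coding transcript and in an exon of a transcript annotated as a retained intron, and held no coding or UTR bases. Its AUC of 279.6 stood at percentile 50.9 of all RCAs, so it was of ordinary size. No other RCA lay within 100 kb of Fosl2.

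On the JUN side, Junb and Jund carried 5 of the 9 RCAs and Jun carried none. JUN is the strongest activator of the family, JUNB can restrain it, and JUND is made in resting cells at a more constant level. Jun (chr4:95049034-95052222) was the most isolated of the 10 genes, with its nearest RCA 333 kb upstream.

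Jund is a single-exon gene (chr8:70698949-70700616) and its 2 RCAs included the one with the highest AUC of the 9. The region chr8:70699736-70700319 was 584 bp wide with an AUC of 499.4, at percentile 94.4 of all RCAs, and the −log10 q of its summit, 4.10, stood at percentile 99.2. It lay inside the exon over 345 coding and 239 UTR bases, and took the promoter class from the start of the antisense transcript Gm11175, which lies inside it. ATAC-seq does not mark strand, so the region could not be given to Jund or to Gm11175. The region chr8:70696543-70696890 was 348 bp wide with an AUC of 383.9, at percentile 81.6, and lay 2059 bp upstream of the GENCODE start of Jund. The RefSeq start of Jund lies 1210 bp further upstream, and from it the same region was 849 bp away. Both regions were GC-rich, with 68.5% and 64.7% against a median of 51.9% over all RCAs. A further RCA stood just outside the window, 11.0 kb upstream of Jund, with an AUC of 335. Of the genes within 1.5-fold of the length of Jund, 5.58% had 2 or more RCAs.

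Junb (chr8:84974484-84978718), a short intronless gene in its coding form, had 3 RCAs, and 1.93% of genes of similar length had as many. Those at chr8:84973867-84974171 and chr8:84974290-84974490 formed a pair 118 bp apart, past the 3′ end of the coding form of Junb and in the last exons of Prdx2, which encodes the antioxidant enzyme peroxiredoxin 2. The first lay 313 bp outside the GENCODE body of Junb and held 83 coding and 89 UTR bases of Prdx2. It had the lowest AUC of the 9, 227.9 over 305 bp, at percentile 22.1. The second was the narrowest of the 9, 201 bp, but steep, with an AUC of 307.5. Per base pair it stood at percentile 96.7 of all RCAs. A narrow region passes the apparent floor of the AUC only with a high value per base pair, so this rank depends partly on width. It met Junb only at the 7 bp of a longer processed transcript, and from the RefSeq body of Junb the pair lay 2738 bp and 2419 bp away. The RCA chr8:84984684-84985086 was upstream, in an intergenic stretch 5966 bp from the start of Junb and 5517 bp from that of Hook2, a gene for a microtubule linker protein. It was 403 bp wide, with an AUC of 313.6 and 64.5% GC. Over the starts of all transcripts, it was the only one of the 9 RCAs nearer to another protein-coding gene, and with 1 start per gene 7 of the 9 were nearest to the early gene, the weaker region of the pair also being lost.

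Atf3 (chr1:191170296-191218039), a stress-induced bZIP factor that mostly represses, had no RCA. By its GENCODE body of 47744 bp it was the longest of the 10 genes, and 30.2% of genes of that length had one. Its nearest RCA was 43.9 kb downstream, with an AUC of 315. The GENCODE start of Atf3 lies 34706 bp from that of RefSeq, so its RefSeq body is much shorter. No RCA was found within 10 kb with either model.

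Among the zinc finger genes, Egr1 and Klf10 each had a distant RCA and Klf6 had none. Egr1 (chr18:34859823-34864984), a target of SRF that is induced together with Fos, had 1 RCA at chr18:34850171-34850387. That region was 217 bp wide with an AUC of 247.8, and it lay 9436 bp upstream, close to the edge of the window, and 10820 bp from the RefSeq start. Klf10 (chr15:38291463-38300706), also known as the TGF-beta inducible early gene, had 1 RCA at chr15:38283964-38284173, 7290 bp past its 3′ end and 16533 bp from its start. The start nearest to it, at 7523 bp, was that of Gm49314, a transcript annotated as still to be experimentally checked. The region was only 210 bp wide, yet its AUC of 340.8 stood at percentile 72.2. Its AUC per base pair stood at percentile 98.4, a rank that also depends partly on its width. Klf6 (chr13:5861482-5870394), a KLF factor of hepatocytes and stellate cells, had its nearest RCA 57.3 kb upstream, with an AUC of 439.

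Ier2 (chr8:84661331-84662852), a short single-exon gene for a nuclear protein of less known function, had 1 RCA at chr8:84659946-84660445. It lay 886 bp past the 3′ end and 2407 bp from the start of the gene, in sequence without an annotated gene. The region was broad and shallow, 500 bp with an AUC of 256.4. Its AUC per base pair stood at percentile 5.85, a rank likewise tied to its width.

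**Figure D2:**
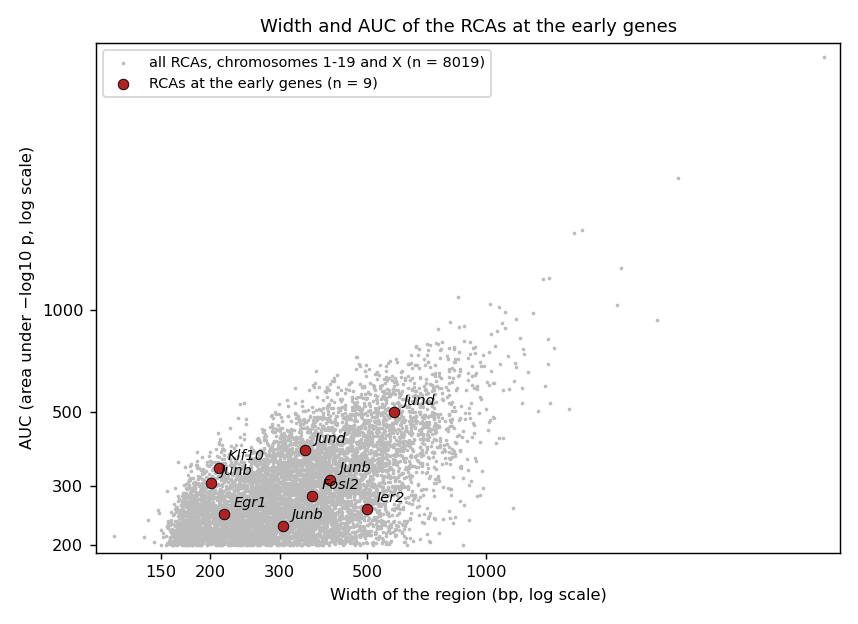
AUC (area under −log10 p) against width in bp, both on log axes, for the RCAs on chromosomes 1 to 19 and X (grey points, n = 8019) and for the 9 RCAs at the early genes (red points, named by gene). The red points lie within the grey cloud, from 227.9 at Junb to 499.4 at Jund.

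Taken as a set, the 9 RCAs were of the same order of size as the rest. Their median AUC was 308 (range 227.9 to 499.4), against 278 for all RCAs with quartiles of 232 and 351. An AUC of 300 or more was reached by 5 of the 9 and by 40.8% of all RCAs. The median width was 348 bp against 326 bp, and the median −log10 q was 3.46 against 3.14. The classes were placed differently, with 5 intergenic, 3 exonic, 1 promoter and 0 intronic regions, where all RCAs were 30.3% intergenic, 10.2% exonic, 19.4% promoter and 40.0% intronic. Jund and Ier2 have a single exon and Junb is intronless in its coding form, so these genes offer little intron sequence of their own. Of the 3 exonic regions, that of Fosl2 lay in the first intron of the coding transcript, and the pair at Junb lay in exons of Prdx2. No bases of repeats were found in 6 of the 9, as in 35.8% of all RCAs. These are descriptions of 9 regions, some of which are neighbours, and the differences were not tested.

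The motifs that early factors read were counted in the same regions, where 9 regions are too few to set a share apart from that of all RCAs. Within 201 bp centred on the summit, TGACTCA or its complement occurred in 4.90% of all 8019 RCAs and in 1 of the 9, that of Klf10, at chr15:38284071-38284077 and 36 bp from the summit. The cyclic AMP response element (TGACGTCA) occurred in 0.449% of all RCAs, the serum response element in 0.723% and the EGR motif (GCGTGGGCG) in 0.175%, and none of the 9 held any of them. The GC box occurred in 14.5% of all RCAs and in 2 of the 9, with 2 copies at the upstream region of Jund and 1 at Ier2. The CACCC box occurred in 41.2% of all RCAs and in 2 of the 9, with 4 copies at the upstream region of Junb and 1 at Jund. An EGR motif followed by a G also holds a GC box, and a match describes letters only, not a bound site.

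**Figure D3:**
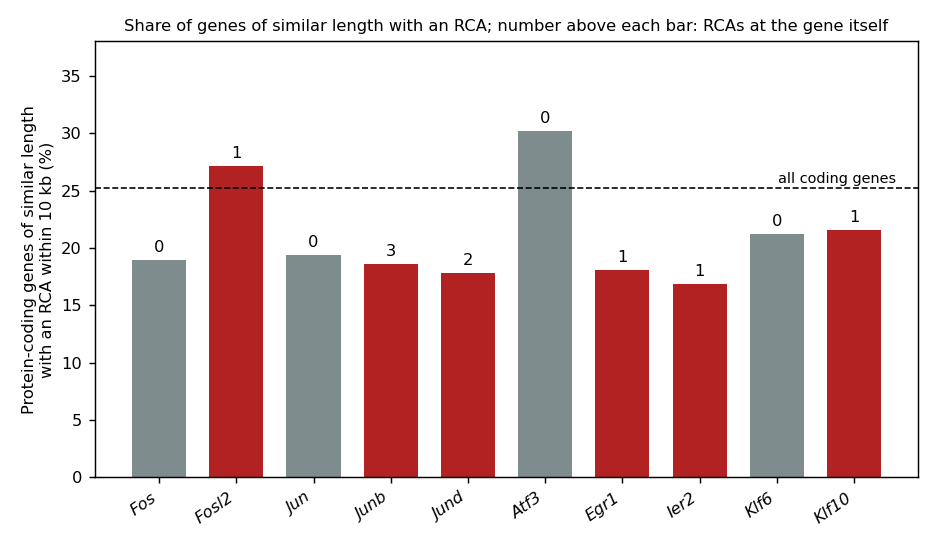
Share (%) of protein-coding genes within 1.5-fold of each early gene's length that had an RCA within 10 kb of the body. The dashed line marks all coding genes (25.2%) and the number above each bar counts the RCAs at the early gene itself; red bars are the 6 genes with an RCA, grey bars the 4 without.

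The RCAs were concentrated on chromosome 8. Junb, Jund and Ier2 all lie there and held 6 of the 9 RCAs, whereas the other 7 genes held 3, at 3 of the genes. Ier2 (chr8:84661331-84662852) and Junb (chr8:84974484-84978718) lie close together, so these are not 3 separate places on the chromosome. On chromosome 8 as a whole, 308 of 1038 coding genes had an RCA within 10 kb, or 29.7%. Gene density differed between these places: 16 other coding starts lay within 100 kb of Junb and 11 of Jund, 4 of Ier2 and Egr1, 2 of Atf3, 1 of Fos, Fosl2, Jun and Klf10, and 0 of Klf6. Over all coding genes the share with an RCA was 19.2% with up to 1 such neighbour and 33.7% with 11 or more, and among genes under 10 kb in length it was 8.58% and 28.8%. Of the 5 early genes with at most 1 neighbour, 2 had an RCA, as did 2 of the 3 with 2 to 5 and both of those with 11 or more. The part of gene density in the counts was not tested.

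Wider windows added regions mostly at the same loci. Within 25 kb there were 19 RCAs at 6 genes, within 50 kb 27 at 7 genes, and within 100 kb 39 at 9 genes, where 34.2%, 44.6% and 56.7% of all coding genes had one. Jund had 13 within 100 kb, Junb 9 and Ier2 7, and Jun had none. Regions open only in Alb-D2KO liver, which 1.02% of all coding genes had within 10 kb, were far from every early gene. The nearest was 241 kb from Atf3 and the next 850 kb from Klf10.

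Control regions that stayed open in Alb-D2KO liver were counted from the numbers that the peak caller gave the regions along the genome. The highest number among the RCAs implies at least 22368 control regions, of which the RCAs were 35.9%. A number absent from the list was read as a control region that met a region of Alb-D2KO liver and was therefore not an RCA. Positions of such regions are not given, only the interval that holds them, and places that the authors had blacklisted before the call carry no number. In the 2845 bp between the 2 RCAs of Jund, which hold both annotated starts of Jund, there was 1. In the 10.2 kb between the inner and upstream RCAs of Junb, which hold the start of Junb, there were 3, and none lay in the 118 bp within the pair. Read in this way, Jund and Junb each had an RCA on either side of a kept region, within the 10 kb window.

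**Figure D4:**
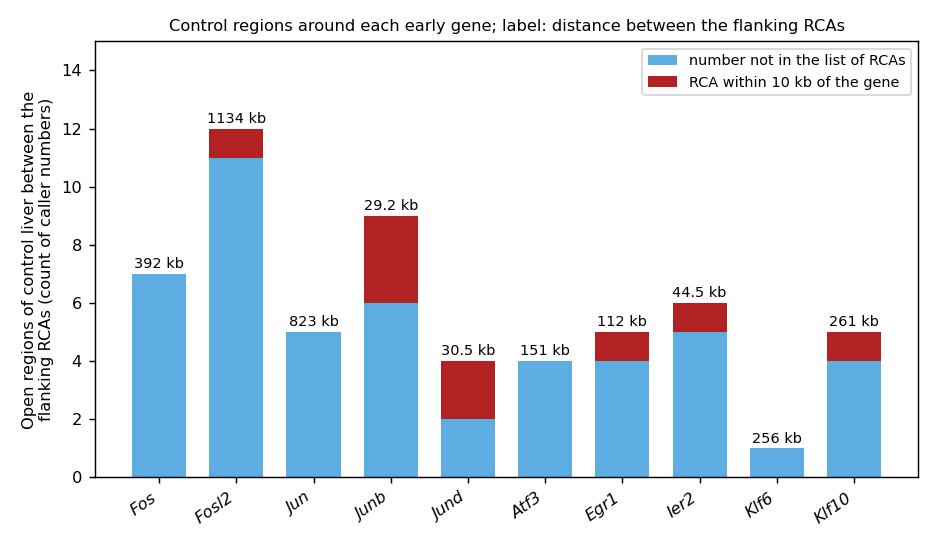
Count of control regions between the RCAs that flank each early gene outside its 10 kb window, split into RCAs within the window (red) and numbers not in the list of RCAs (blue). The distance between the flanking RCAs stands above each bar, from 29.2 kb at Junb to 1134 kb at Fosl2.

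Between the nearest RCAs outside the windows, Fos had 7 control regions in 392 kb and Jun had 5 in 823 kb, all kept. Fosl2 had 12 in 1134 kb, of which 11 were kept. Atf3 had 4 in 151 kb and Klf6 had 1 in 256 kb, all kept, so the absence of RCAs at Klf6 went with few called regions of any kind. Junb had 9 in 29.2 kb with 6 kept, Jund 4 in 30.5 kb with 2 kept, and Ier2 6 in 44.5 kb with 5 kept. Egr1 had 5 in 112 kb and Klf10 had 5 in 261 kb, with 4 kept at each. The median span was 203 kb for the early genes and 644 kb for all coding genes, with a median of 5 regions in both and a median of 4.5 kept against 5. Summed over genes, RCAs within the windows were 15.5% of these regions at the early genes and 6.37% at all coding genes. These shares rest on the same 9 RCAs as the counts above and on spans of unlike length.

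Other genes of the early response were counted in the same way, from 6 lists of 84 genes in all. An RCA lay within 10 kb of 40 of them (47.6%), against 25.2% of all coding genes and a mean of 23.9% for genes of their lengths. With RefSeq bodies it was 39, with Map2k2 lost. None had a region open only in Alb-D2KO liver. The share differed widely between the lists. Partners of AP-1 in the bZIP class had the fewest, 2 of 13 (Mafg and Atf7). Relatives of EGR and KLF had 5 of 11, other early transcription factors 4 of 9, early effectors such as Sgk1 6 of 15, and upstream signalling genes such as Egfr and Srf 8 of 18. Feedback inhibitors, which end the early response by dephosphorylating MAP kinases (DUSP proteins), degrading short-lived mRNA (the Zfp36 family) or blocking receptors and kinases (Socs3, Errfi1), had 15 of 18, where genes of their lengths had 20.7% on average. Of these 15, Ier3, Ier5, Dusp4, Dusp6, Zfp36, Nab2 and Tob1 had no RCA with an AUC of at least 300, and the rest did. Hepatocyte markers, with 5 of 6, had the same share as the feedback inhibitors, 83.3%. The difference between lists was not tested.

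**Figure D5:**
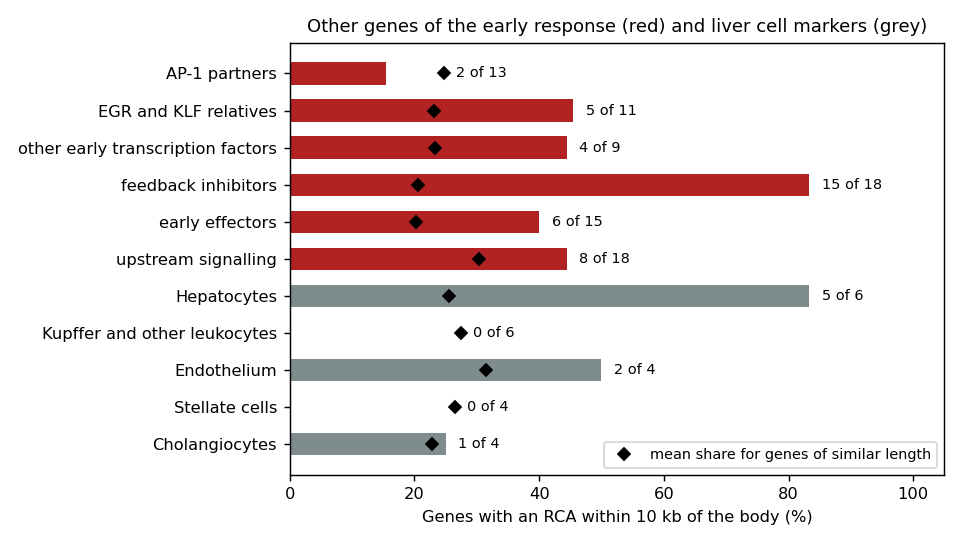
Share (%) of genes with an RCA within 10 kb of the body in the 6 lists of other early response genes (red) and in 5 lists of liver cell markers (grey), with the count beside each bar. Diamonds give the mean share for genes of similar length, which lies between 20.2% and 31.5%. Feedback inhibitors and hepatocyte markers each reach 83.3%.

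Ordered by RCAs, and by summed AUC where counts were tied, the first 5 of these genes were Per1, Klf15, Mafg, Cebpb and Dusp1. Per1, a clock gene that is also induced by cyclic AMP and glucocorticoids, had 6 RCAs with a summed AUC of 1818. Klf15, a KLF factor of fasting metabolism, had 5 with a summed AUC of 2069, and 4 of them were within 200 bp of a start of Klf15 itself. Mafg, a small MAF protein, and Cebpb, a bZIP factor of the acute phase response, had 4 each, with summed AUCs of 1718 and 1168. Dusp1, the phosphatase that switches off MAP kinases, had 3 with a summed AUC of 1339. That count rests on a GENCODE body of 56539 bp, and the RCA at a start of Dusp1 lay 54393 bp from the outermost one. With the RefSeq body of 2882 bp, Dusp1 had 1 RCA, while the counts of Per1, Klf15, Mafg and Cebpb were as given. Klf13, Nr4a2, Met and Mapk14 also had 3, with lower summed AUCs. The summed AUC of Jund was 883 and that of Junb 849, below all 5 of these genes.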

How the data were processed

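Open regions of adult mouse liver were taken from 2 lists that the authors deposited, made from 4 control and 4 Alb-D2KO ATAC-seq libraries. The authors removed adapters with NGmerge, aligned reads to mm10 with BWA 0.7.17, dropped alignments with mapping quality under 30 and duplicates, called regions with Genrich 0.6 at q 0.05 on the pooled libraries of a genotype, leaving out a blacklist built from regions found in calls on individual samples, and subtracted regions that overlapped one of the other genotype. FastQC and Picard are also named in the submitters' processing notes. Each deposited row gives positions, a score (the mean area per base, scaled by 1000 and capped at 1000, a cap met by 4 of the 9 regions at the early genes and 39.6% of all RCAs), a signal (the AUC) and the −log10 p and −log10 q of the summit, as the authors' caller wrote them. The score and the −log10 p of the summit were not otherwise used. Intervals of counting error cannot be given, because the deposited values hold no counts.

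Genes were those of GENCODE M21 (the authors used a later release), restricted to protein-coding genes on chromosomes 1 to 19 and X, and 8019 of the 8031 RCAs lie there. Overlap needed 1 bp. Regions were classed by the first met of promoter (within 200 bp of any annotated start), exon, intron and intergenic. Genes of similar length were within 1.5-fold. Sequences and motif matches were read from the GRCm38 (mm10) genome with pyfaidx 0.9.0.4, and tables were made with pandas 2.3.3 and numpy 2.4.6 in Python 3.11.15. RefSeq (GRCm38.p6) gene bodies were used as a second model. Overlap code was tested on simulated regions. The members and the gene lists were chosen with earlier results of these data known, so the counts are descriptions and no p-value is given. Genes were named by a rule: all 10 early genes, any gene whose start was nearer to one of their regions, and the 5 other early genes with the most RCAs, ties being ordered by summed AUC. Tmed10, Prdx2, Cps1, the genes tied with Dusp1, Map2k2 and the examples in the gene lists were named outside it, after their values were seen. Alternatives covered the distance from the body, the overlap, the strength and width of regions, merging, the promoter window, the start sites, gene assignment, leaving out each gene, the length range and, added after seeing the data, the RefSeq bodies.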

Additional observations from a re-analysis of the deposited data

How the results depend on the processing

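Of 174 recomputed values, 156 stayed within 1.5-fold of those reported (for the median AUC, within the spread between the regions), which for the early genes includes 4 genes with 6 RCAs at 5 kb. Counting gene bodies only (0 kb) left 3 early genes with 3 RCAs and a summed AUC of 1086, in place of 6, 9 and 2857, and 3434 coding genes in place of 5484. A window of 25 kb gave 19 RCAs, a summed AUC of 5863, and 3 promoter regions at 2 genes in place of 1 at 1. An AUC of at least 300 left 3 early genes with 5 RCAs and a summed AUC of 1845, and 2816 coding genes. A promoter window of 3000 bp gave 6 promoter regions at 4 genes, and start sites of coding genes only gave 0. Leaving out each gene in turn gave 0 to 1 promoter regions and 0 to 1 genes with one, 0 without Jund. Fos, Jun, Atf3 and Klf6 had no RCA, so leaving them out could not change any value. A q of 0.01 changed none either, so part of the 156 says little about stability. RefSeq bodies, added after seeing the data, dropped Egr1 and gave 9 RCAs with 1 more at Jund. The count of early genes with an RCA thus depends on the window and on the strength asked of a region. The count of Alb-D2KO-only regions was 0 throughout, where so few coding genes have one that it could hardly move. Because the calls were pooled and the depth is unknown, a region just under the threshold of 1 genotype cannot be told from a closed one. No paired analysis was possible because the result comes from no test.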
